A study of Homo sapiens with 10 samples.

Results

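The major histocompatibility complex (MHC) on the short arm of chromosome 6 was examined here as the interval chr6:28500001-33500000 of hg38, in DRIP-seq peak lists of U2OS osteosarcoma cells. Overlapping or touching peaks of the 5 DRIP lists were merged, and 746 of the 177004 merged regions start inside the interval. The SCAN1 cells carried TDP1 H493R, the amino acid change of SCAN1 (spinocerebellar ataxia with axonal neuropathy), as 2 lines named SCAN1#1 and SCAN1#2, and were set against the wild-type (WT) U2OS line. SCAN1#1 has a library in experiments 1 and 2, SCAN1#2 has one in experiment 2, and WT has one in each experiment, which gives 3 SCAN1 and 2 WT libraries whose replicate number is the number of the experiment. The labels state 1 lot of the S9.6 antibody for experiment 1 and a mix of lots for experiment 2, so experiment and antibody lot cannot be told apart. Neither separate cultures for the replicates nor a clonal origin of the SCAN1 lines is stated, so each p-value below measures only the spread between these libraries. TDP1 is an enzyme that releases topoisomerase 1 stuck to a DNA end. The question of the series is how the H493R change affects repair of breaks formed in transcription.

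DRIP-seq reads RNA-DNA hybrids, the core of R-loops, which form where a nascent transcript anneals back to its template strand behind RNA polymerase. They are known for gathering at GC-rich gene starts and at transcript ends of active genes. The MHC is one of the most gene-dense stretches of the human genome. Its class I block holds the HLA genes that present peptides on nearly all nucleated cells, its class II block holds the HLA genes of professional antigen-presenting cells, and the class III block between them is packed with genes of complement, RNA processing and chromatin. HLA genes are also the most polymorphic genes known, and the lists rest on reads placed on the reference genome. How far the alleles of U2OS differ from that reference, and what this does to the peaks, was not tested.

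The promoter sequences below stand for 3 outcomes in the interval: a start under a peak in all 5 libraries (HLA-B, FLOT1, PHF1, BRD2), a start under a peak in 3 libraries (HLA-C) and a start without a peak (HLA-DPB1). Each line gives the 250 bases before the start, read 5′ to 3′ on the strand of the gene, from RefSeq on GRCh38.p14. Capitals mark matches, on either strand, to the GC box GGGCGG, the CCAAT box CCAAT and GGGATTCCC, an NF-kB type site of class I enhancers. The interferon response core TTTCNNTTT and the cyclic AMP response element TGACGTCA were searched on both strands too, and none of the 6 windows holds either. In FLOT1 the NF-kB type site overlaps a GC box. The windows are HLA-B at chr6:31357180-31357429 on the minus strand, HLA-C at chr6:31272093-31272342 on the minus strand, FLOT1 at chr6:30742688-30742937 on the minus strand, PHF1 at chr6:33410764-33411013 on the plus strand, BRD2 at chr6:32968344-32968593 on the plus strand and HLA-DPB1 at chr6:33075740-33075989 on the plus strand.
HLA-B: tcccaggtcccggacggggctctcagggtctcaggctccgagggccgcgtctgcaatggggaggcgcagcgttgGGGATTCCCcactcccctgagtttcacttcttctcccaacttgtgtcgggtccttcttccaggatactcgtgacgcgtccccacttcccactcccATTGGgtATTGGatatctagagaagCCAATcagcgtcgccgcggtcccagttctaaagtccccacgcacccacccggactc
HLA-C: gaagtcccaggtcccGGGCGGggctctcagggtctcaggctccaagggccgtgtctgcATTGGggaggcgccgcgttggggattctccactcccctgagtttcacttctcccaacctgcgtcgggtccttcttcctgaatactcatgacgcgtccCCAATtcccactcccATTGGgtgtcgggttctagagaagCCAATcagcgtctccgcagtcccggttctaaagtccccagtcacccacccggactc
FLOT1: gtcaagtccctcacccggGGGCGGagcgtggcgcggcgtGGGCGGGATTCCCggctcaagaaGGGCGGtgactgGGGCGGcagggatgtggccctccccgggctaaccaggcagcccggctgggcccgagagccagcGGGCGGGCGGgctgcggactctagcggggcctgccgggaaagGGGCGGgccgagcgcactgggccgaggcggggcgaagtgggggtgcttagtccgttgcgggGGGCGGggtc
PHF1: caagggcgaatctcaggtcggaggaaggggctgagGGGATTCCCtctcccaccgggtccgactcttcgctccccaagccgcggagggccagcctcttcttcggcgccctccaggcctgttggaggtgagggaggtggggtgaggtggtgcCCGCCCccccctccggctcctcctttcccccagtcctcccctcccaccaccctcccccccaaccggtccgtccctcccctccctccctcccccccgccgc
BRD2: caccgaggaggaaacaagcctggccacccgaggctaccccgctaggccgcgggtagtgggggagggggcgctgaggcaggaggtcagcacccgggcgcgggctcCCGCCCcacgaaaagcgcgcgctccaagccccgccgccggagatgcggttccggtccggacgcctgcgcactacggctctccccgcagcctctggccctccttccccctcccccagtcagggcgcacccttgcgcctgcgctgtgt
HLA-DPB1: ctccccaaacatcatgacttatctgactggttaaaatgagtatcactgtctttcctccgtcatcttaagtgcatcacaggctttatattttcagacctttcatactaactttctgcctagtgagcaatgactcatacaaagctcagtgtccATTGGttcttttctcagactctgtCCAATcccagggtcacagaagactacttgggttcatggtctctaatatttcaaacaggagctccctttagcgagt

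HLA-B and HLA-C, neighbours that code for the heavy chains of 2 classical class I molecules, share an ATTGG and CCAAT pair near the start, whereas the exact NF-kB type letters stand in HLA-B and not in HLA-C. The HLA-DPB1 window, of a class II chain, holds 42.0% G and C and a CpG ratio (observed over expected CpG) of 0.191. The BRD2 window, of a bromodomain protein that reads acetylated histones, holds 74.0% and a ratio of 0.796.

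Over the interval, RefSeq gives 214 promoter windows of 154 of the 172 protein-coding genes. A peak covered part of the window in all 5 lists of equal length for 53 of them (24.8%), against 11.1% of the 22131 windows of all protein-coding genes. The median GC content was 62.0% in these 53 windows, 60.2% in the 54 with a peak in 1 to 4 libraries and 54.0% in the 107 with none. The median CpG ratio ran the same way, at 0.755, 0.658 and 0.239. In all protein-coding genes the corresponding ratios were 0.836, 0.818 and 0.619. MHC windows were thus poorer in CpG in each class, with the widest gap in those without a peak. A GC box stood in 67.9% of the 53 windows, 70.0% of the 2457 windows of all protein-coding genes with a peak in all 5 libraries and 53.7% of all protein-coding windows. The NF-kB type letters stood in 9.43% of the 53, those of NRM, FLOT1, HLA-B, HSD17B8 and PHF1, in none of the other MHC windows, in 0.733% of the 2457 and in 0.429% of all windows. The interferon response core stood in 5.66% of the 53, 5.45% of the 2457 and 7.87% of all windows. The cyclic AMP element stood in 0%, 2.56% and 2.02% of these, the CCAAT box in 24.5%, 30.9% and 32.7%, and a GGGG run, on either strand and often inside another motif, in 98.1%, 97.2% and 91.9%. These shares describe letters in a window and were not tested.

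The deposited lists hold 63456, 110745 and 89932 peaks in SCAN1#1 replicate 1, SCAN1#1 replicate 2 and SCAN1#2 replicate 2, and 82545 and 89445 peaks in WT replicates 1 and 2. Of these, 512, 503 and 416 peaks of the SCAN1 libraries and 582 and 443 peaks of the WT libraries start in the MHC interval. No file or label used here states the read depth. Because list length differs, coverage was compared on lists of equal length, the 63456 peaks of lowest p-value in each library. On these lists peaks covered 10.1%, 7.80% and 6.85% of the interval in SCAN1 libraries and 11.3% and 7.50% in WT libraries. Among the 625 windows of 5 Mb that tile the genome, the MHC ranked between 6 and 9 by covered bases in every library, and 5 by its number of protein-coding genes (172, where the median window has 24).

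MHC regions were wider than those of the genome at large and were shared more often between libraries. A peak was present in all 5 libraries in 160 of the 746 regions (21.4%), against 12.4% of all merged regions. Regions seen in a single library made up 39.4% (294 regions), against 43.1%. The median width was 564.5 bases, against 424 bases, and the regions present in all 5 libraries had a median of 1820.5 bases, against 1149 bases. These shared regions held 61.4% of the merged bases of the MHC, against 34.8% in the genome. By position, 172 regions (23.1%) touched the 1 kb around an end of a protein-coding gene, against 9.61% of all regions, 287 (38.5%) lay inside protein-coding genes, against 51.1%, 74 lay on other annotated genes and 213 (28.6%) were intergenic, against 29.2%. The outermost members start at 28531377, a region of 375 bases with a peak in 2 libraries, and 33493424, one of 869 bases with a peak in all 5. Just outside lie a region of 303 bases at 28489418 with a peak in 1 library and one of 631 bases at 33511630 with a peak in 2.

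Coverage was concentrated in a few blocks. The class III block (59 protein-coding genes) had peaks over 24.9%, 17.9% and 15.1% of its length in SCAN1 libraries and 27.4% and 17.2% in WT libraries. The extended class II block (20 genes) was close to it, with 22.3%, 17.1% and 14.99% in SCAN1 libraries and 25.5% and 17.8% in WT libraries. The class I block (50 genes) had 9.66%, 7.16% and 6.70% in SCAN1 libraries and 11.5% and 6.43% in WT libraries. The extended class I block (23 genes), home to tRNA, zinc finger and olfactory receptor genes, had 2.41% to 3.28% in SCAN1 libraries and 3.08% and 3.25% in WT libraries. The class II block (20 genes) was covered at 2.29% to 2.71% in SCAN1 libraries and 2.33% and 2.61% in WT libraries. In every library the class II block lay below the class III block that adjoins it by a wide margin, with no overlap of the 2 sets of values. Peaks on genes were counted on lists of equal length. Peaks in all 5 libraries were found on all 20 genes of the extended class II block, 37 of 59 in class III, 33 of 50 in class I, 4 of 23 in extended class I and 2 of 20 in class II. Over the interval that is 96 of 172 genes, against a genome background of 47.9%, and 38 genes had no peak in any of these lists.

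**Figure D1:**
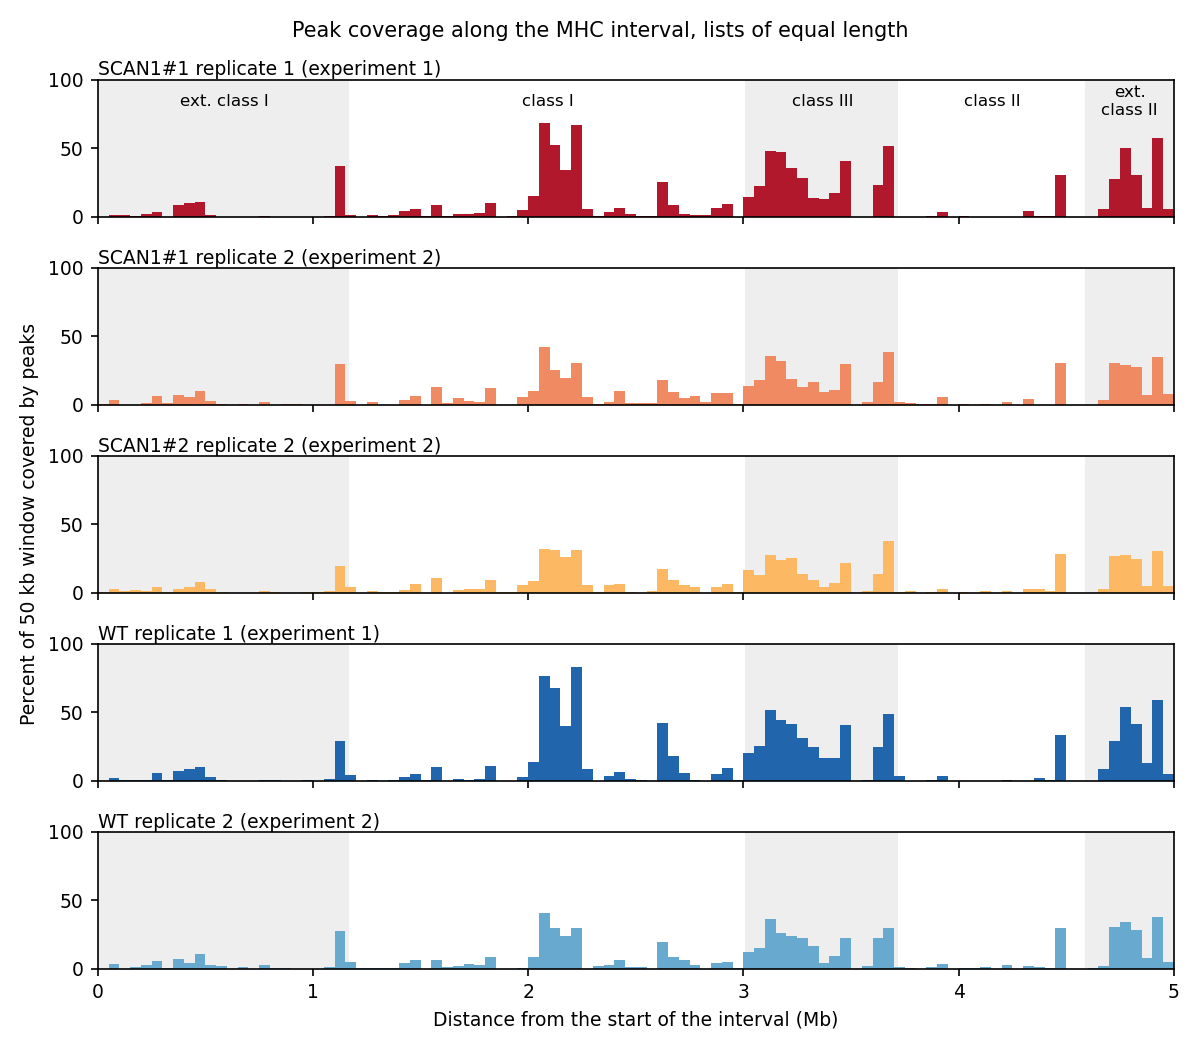
Percent of each 50 kb window covered by peaks (lists of equal length) against the distance from the start of the interval in Mb, one panel per library, with the MHC blocks shaded in turn. The tallest windows reach 68.6% in SCAN1#1 replicate 1 and 83.3% in WT replicate 1, both libraries of experiment 1, and the class II block is nearly empty in all 5 panels apart from the window that holds BRD2.

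The genes with the highest coverage lay mostly in the class III and extended class II blocks. Percent covered is measured over the gene with 1 kb on both sides. HSD17B8, a mitochondrial fatty acid synthesis enzyme, was covered over 100%, 100% and 97.2% in SCAN1 libraries and 94.8% and 93.5% in WT libraries. PHF1, a Polycomb accessory protein, was covered over 93.6%, 100% and 94.9% in SCAN1 libraries and 96.9% and 95.2% in WT libraries. BRD2 was covered over 93.4%, 96.3% and 94.5% in SCAN1 libraries and 95.4% and 95.2% in WT libraries. The 3 genes were near full coverage in every library, and the groups overlapped at PHF1 and BRD2. PBX2, a homeodomain transcription factor, averaged 93.2% ± 5.97 in SCAN1 and 91.0% ± 2.32 in WT (SD, n = 3 and 2). The remaining genes of the 12 with the highest mean were B3GALT4, RING1, SLC39A7, AGER, TUBB, DXO, CDSN and DDAH2, with means over the 5 libraries between 82.1% and 89.8%. RING1 is a Polycomb ubiquitin ligase, AGER the receptor for advanced glycation end products, TUBB a beta-tubulin, DXO an RNA decapping enzyme and CDSN the corneocyte adhesion protein corneodesmosin.

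The strongest peaks marked the same few places. The highest fold enrichment in the interval, a ratio over the background estimate of the authors' peak caller, was 49.01, 71.7 and 119 in SCAN1 libraries and 55.5 and 59.5 in WT libraries. In 4 libraries this peak lay in the region of TUBB, FLOT1 (flotillin, a membrane raft protein) and IER3 (an immediate early stress gene). In WT replicate 1 it lay at PPP1R10 and MRPS18B, a phosphatase regulator and a mitochondrial ribosomal protein, and the strongest peak of the TUBB region had 51.7. The region of PPP1R10 and MRPS18B was among the 5 strongest peaks of all 5 libraries, at 37.6, 58.3 and 45.8 in SCAN1 and 55.5 and 36.8 in WT. Other members of these lists were TRIM39 with the lncRNA HCG18, CDSN with PSORS1C1, BRD2, RPS18, CFB with NELFE, and PHF1.

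The genes of antigen presentation split by class. Each of the 7 class I and class I-like genes analysed had a peak in some list of equal length, and in 3 every such list had one. As deposited, HLA-E had a peak in all 5 libraries too. Of the 13 class II genes, 11 had no peak in any list of equal length, and the remaining pair had one in a single library each: HLA-DRB1 at 2.28% in WT replicate 2 and HLA-DQA1 at 1.33% in SCAN1#1 replicate 2. For HLA-DRA, which codes for the alpha chain of DR molecules, the list as deposited holds a peak over 4.37% of the gene in WT replicate 2 and none in the other 4 libraries. The class II genes were therefore below the 2% mean needed to enter the tests, and all 13 are reported only by these values.

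Mean class I coverage was higher in SCAN1 libraries than in WT for all 5 of these class I genes that entered the fit. Their median difference was 19.1 percentage points, where the 115 tested genes of the interval had a median of -1.74 and all 8471 tested genes 0.0803. Of the 5, 3 were higher in all 3 comparisons within experiments, against 13.0% of the 115 genes and 19.4% of all tested genes. Without the filter on coverage, 5 of the 7 class I genes were higher and 2 lower, with a median of 2.08. The medians of the 5 class I genes and of the 115 genes moved with single libraries. That of the class I genes was 9.001 without WT replicate 1, 10.3 without SCAN1#1 replicate 2 and 11.9 on the lists as deposited, and that of the 115 genes was 3.07 without WT replicate 1, -7.47 without WT replicate 2, -5.09 without SCAN1#1 replicate 1 and -0.22 with the experiment as a block. No difference passed the test, and the small positive differences of MICA and HLA-G turned negative under some alternatives, MICA to -0.62 points on the lists as deposited. HLA-E, a non-classical class I gene whose product is read by natural killer cells, was covered over 37.0%, 43.8% and 41.4% in SCAN1 libraries and 15.8% and 0% in WT libraries. The groups did not overlap. On the lists as deposited HLA-E had 37.0%, 48.3% and 45.8% in SCAN1 and 15.8% and 16.8% in WT, so the 0% of WT replicate 2 marks a weak peak below the equal-length limit. In the region that begins within the first kb of HLA-E (chr6:30489595-30491662) the strongest peak had folds of 6.001, 12.2 and 8.55 in SCAN1 libraries and 6.38 and 4.54 in WT libraries, and the groups overlapped. In the region at the far end of the gene (chr6:30492750-30494189) the folds were 8.57, 7.69 and 10.4 in SCAN1 libraries and 4.85 and 3.88 in WT libraries, without overlap.

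HLA-B was covered over 24.3%, 53.7% and 23.7% in SCAN1 libraries and 13.9% and 13.5% in WT libraries, again without overlap, and the highest value was that of SCAN1#1 replicate 2. HLA-C was covered over 14.1%, 46.3% and 33.4% in SCAN1 libraries and 1.59% and 22.8% in WT libraries, and WT replicate 2 lay above SCAN1#1 replicate 1. MICA, a stress ligand of the receptor NKG2D, was covered over 25.0%, 23.9% and 16.5% in SCAN1 libraries and 26.6% and 12.8% in WT libraries, with full overlap. HLA-G had at most 5.19%, HLA-F 0.655% and MICB 1.85% in any library. The mean over the 7 genes was 14.9%, 24.2% and 17.1% in SCAN1 libraries and 8.47% and 8.10% in WT libraries.

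Among the antigen-processing genes, PSMB8, an inducible subunit of the immunoproteasome, was covered over 5.37%, 13.0% and 10.2% in SCAN1 libraries and 0% in both WT libraries. Its peak is the 775-base region at chr6:32843461-32844235, which overlaps the gene near one end and its antisense partner PSMB8-AS1, with folds of 4.99, 6.66 and 7.10 in SCAN1 libraries and no peak in either WT list as deposited. TAP2, a chain of the peptide transporter, was covered over 8.51%, 7.70% and 4.86% in SCAN1 libraries and 0% and 4.58% in WT libraries, a gap that is small beside the spread. TAPBP, which codes for tapasin, the bridge between that transporter and class I, was covered over 63.0%, 33.2% and 36.0% in SCAN1 libraries and 77.3% and 46.8% in WT libraries. TAPBP was lower in SCAN1 within both experiments, although the groups overlapped. TAP1 and PSMB9 stayed at or below 3.16% in every library.

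**Figure D2:**
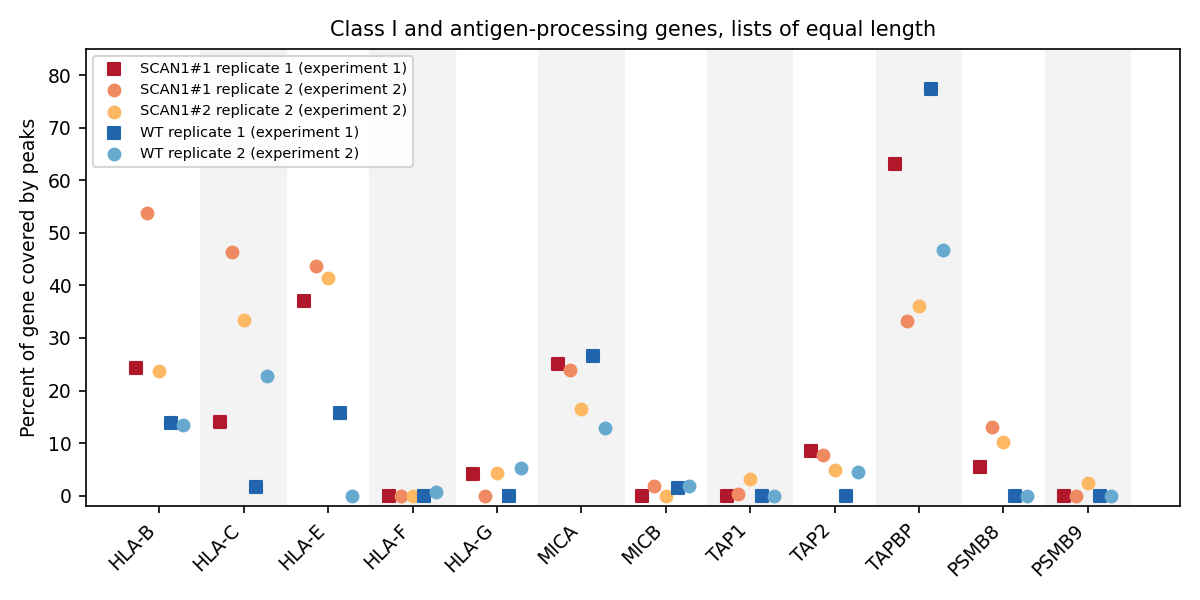
Percent of each gene covered by peaks (gene with 1 kb on both sides, lists of equal length) for the 7 class I and class I-like genes and 5 antigen-processing genes, with one point per library; squares are experiment 1 and circles experiment 2. The 3 SCAN1 points of HLA-E, HLA-B, TAP2 and PSMB8 lie above both WT points, while the points of HLA-C and MICA overlap.

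Across the interval no gene differed between SCAN1 and WT in the limma test with Benjamini-Hochberg adjustment over all 8471 genes. Of the 115 MHC genes that entered it, 0 passed an adjusted p of 0.05 in either direction (0% of all tested genes). At an unadjusted p under 0.05 there were 2 higher and 1 lower in SCAN1, against 1.94% and 1.55% of all tested genes. The 2 were HLA-E, by 32.8 percentage points (SE 7.80), and PSMB8, by 9.53 points (SE 2.48), and the 1 was CDSN, by -13.9 points (SE 5.21). With the experiment as a block, 2 were higher and 4 lower at the same unadjusted level, against 298 and 220 of all 8471 tested genes. The means were higher in SCAN1 for 45 genes and lower for 70, but with the experiment as a block these counts were 56 and 59, without WT replicate 1 they were 79 and 34, and without WT replicate 2 they were 28 and 86. The balance of directions thus turned with a single WT library. In 7 genes all SCAN1 libraries lay above both WT libraries (6.09%, against 9.48% of all tested genes), and in 7 all lay below (6.09%, against 6.86%). Differences within experiments were all positive in 15 genes (13.0%, against 19.4%) and all negative in 21 (18.3%, against 15.8%). These shares sit near or below those of all tested genes.

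By the size of the smallest difference within experiments, the genes higher in SCAN1 were led by HLA-E, AGPAT1, HLA-C, HLA-B, PSMB8, RNF5, HSD17B8 and DDAH2. AGPAT1, RNF5 and DDAH2 turned negative without WT replicate 2, at -3.57, -14.9 and -7.47 points. Those lower in SCAN1 were led by KIFC1, FKBPL, TAPBP, RGL2, CDSN, ABCF1, MSH5 and PSORS1C1. KIFC1, a kinesin that clusters centrosomes, was covered over 43.9%, 22.9% and 15.4% in SCAN1 libraries and 65.0% and 40.9% in WT libraries. It was lower in SCAN1 by 18.0 to 25.5 points in the 3 comparisons within experiments, yet the groups overlapped. FKBPL, an immunophilin-like gene, had 18.5%, 45.4% and 39.3% in SCAN1 libraries and 42.2% and 63.1% in WT libraries. CDSN had 81.5%, 71.9% and 78.2% in SCAN1 libraries and 95.03% and 87.1% in WT libraries, with no overlap between groups, but on the lists as deposited SCAN1#2 had 89.4% and overlapped WT replicate 2.

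Single regions and windows gave the same count. Of the 452 MHC regions with a peak in at least 2 libraries, limma called 0 in either direction (0% of 100719 regions). Below an unadjusted p of 0.05 there were 2 higher and 8 lower, against 1.1% and 0.851% of all regions. With the experiment as a block, 5 were higher and 17 lower at the same unadjusted level, against 1516 and 2002 of all 100719 regions. Without WT replicate 1 limma called 18 regions lower (3.98%, against 6.1% of all regions), and without WT replicate 2 it called 31 (6.86%, against 6.21%), each time against a lone WT library that is assumed to vary like SCAN1. Neither share stood far from that of all regions. None of the 10 windows of 500 kb passed limma's adjusted threshold, against 0.0626% called in each direction among 4793 windows, and none had an unadjusted p under 0.05, against 1.23% higher and 0.668% lower. The whole interval held 1.22%, 0.840% and 0.842% of all peak bases in SCAN1 libraries and 1.33% and 0.854% in WT libraries. The mean share was 0.967% ± 0.219 in SCAN1 and 1.09% ± 0.337 in WT (SD, n = 3 and 2), a difference of -0.124 points with an exact two-sided permutation p of 0.5, where the smallest that 10 splits allow is 0.1. Within experiments the log2 ratios of SCAN1 over WT were -0.12, -0.02 and -0.02. The limma estimate over 598 windows of 5 Mb was -0.16 on the log2 scale (SE 0.31, adjusted p = 0.997), and -0.07 (SE 0.10, adjusted p = 0.789) with the experiment as a block. Without WT replicate 1 it was 0.16, still short of the threshold.

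Presence of a peak followed genotype in few regions. In 8 regions all 3 SCAN1 lists and no WT list had a peak (1.07%, against 0.945% of all regions), and in 13 both WT lists and no SCAN1 list had one (1.74%, against 1.39%). On lists of equal length the counts were 3 and 8. The widest of the 8 were a 1012-base region in the lncRNA HCG20 at chr6:30780563-30781574, an 894-base region at chr6:31352536-31353429 within 1 kb of the 3′ end of HLA-B, an intergenic region of 834 bases, the PSMB8 region and an intergenic one of 744 bases. The region beside HLA-B had folds of 5.77, 7.59 and 4.06 in SCAN1 libraries. The widest of the 13 were 1120 bases between genes, 1104 bases in VPS52, a subunit of a vesicle tethering complex, 1013 bases in MRPS18B, 647 bases between genes and 575 bases in SLC44A4, a choline transporter-like gene.

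The MHC share differed more between experiments than between genotypes. This comparison was added after the values were seen. In experiment 2 the interval held 0.845% ± 0.00741 of peak bases (SD, n = 3), and in experiment 1 it held 1.28% ± 0.0778 (n = 2). The difference of -0.430 points had an exact two-sided permutation p of 0.1, the smallest possible here. Every library of experiment 2 lay below both libraries of experiment 1. The log2 ratio of experiment 2 over experiment 1 was -0.54 in SCAN1#1 and -0.64 in WT, the 2 lines with a library in each. In the limma fit with genotype as a term the interval fell by 0.58 on the log2 scale in experiment 2 (SE 0.10, adjusted p = 0.000135). The difference was -0.64 (SE 0.23, adjusted p = 0.0843) without SCAN1#1 replicate 1, -0.54 (SE 0.20, adjusted p = 0.0616) without WT replicate 1 and -0.54 (SE 0.21, adjusted p = 0.0676) without WT replicate 2. The 2 fits without a WT library give the same difference by construction, because the genotype term fits the remaining WT library exactly. In each of the 3 fits the difference rests on a lone library of experiment 1. The SE grew, and the call was lost in each of the 3.

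The fall was shared by other gene-rich windows. Of the 598 windows of 5 Mb, 76 (12.7%) were lower and 380 (63.5%) higher in experiment 2. Among the 27 windows with at least 100 protein-coding genes, 24 were lower and 0 higher, and the MHC ranked 14 of 27, at the median of these windows. Among the 219 windows with fewer than 20 protein-coding genes, 2 were lower and 191 higher. Antibody lot, peak number and gene density move together with this difference, and their part in it was not tested.

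Within the interval the gap between experiments was seen in 3 of the 5 blocks. Mean coverage of class III was 16.7% in experiment 2 and 26.1% in experiment 1, a ratio of 0.640. It was 6.76% and 10.6% in class I, a ratio of 0.639, and 16.6% and 23.9% in extended class II, a ratio of 0.696. In class II it was 2.63% in experiment 2 and 2.31% in experiment 1, and in extended class I 2.95% and 3.18%, ratios of 1.14 and 0.926. The libraries of both experiments overlapped in the extended class I block. Of the 10 windows of 500 kb, limma called 4 lower in experiment 2 (7.11% of 4793 windows) and 1 higher (43.9%). The largest fall was in the window chr6:30500001-31000000, which holds PPP1R10, TUBB and FLOT1, at -0.96 (SE 0.12, adjusted p = 0.00087). Peaks there covered 73.3, 74.2 and 72.8 kb in experiment 2 (SCAN1#1, SCAN1#2 and WT) and 127.8 and 150.7 kb in experiment 1 (SCAN1#1 and WT). The windows starting at 31500001, 32000001 and 33000001 fell by 0.73, 0.40 and 0.55, with adjusted p of 0.00124, 0.0275 and 0.00402. The window that rose, chr6:29000001-29500000 with the olfactory receptors, held only 3.39, 3.29 and 5.16 kb in experiment 2 and 1.02 and 2.55 kb in experiment 1, a log2 change of 1.09 (SE 0.29, adjusted p = 0.0109). Leaving out SCAN1#1 replicate 1 leaves 1 library in experiment 1. In that fit these calls were lost, as were nearly all calls of 500 kb windows over the genome. The median difference of the 10 windows was -0.287 there and -0.285 with all libraries.

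**Figure D3:**
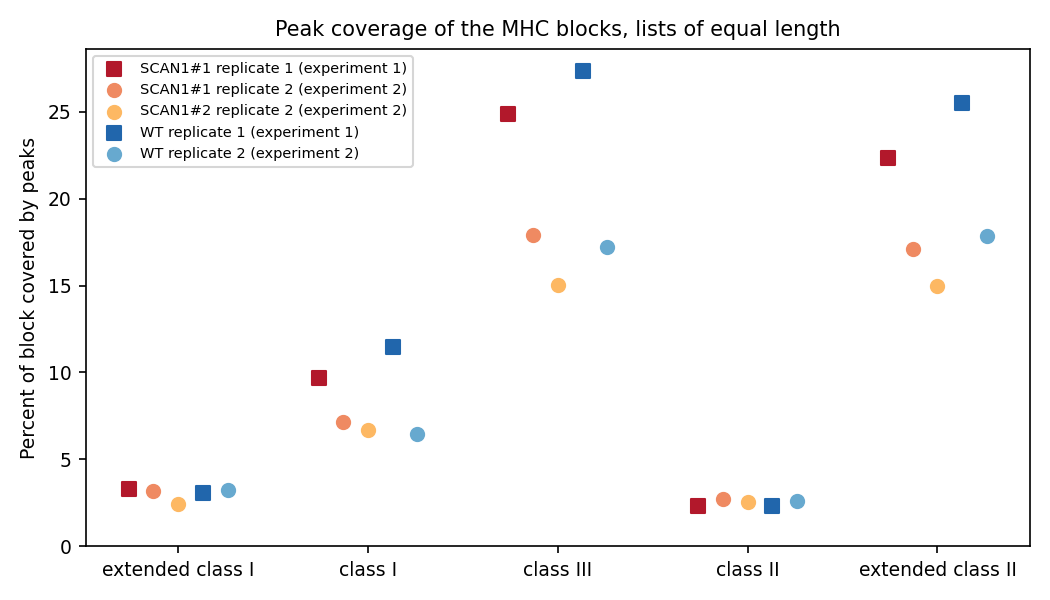
Percent of each MHC block covered by peaks (lists of equal length), one point per library; squares are experiment 1 and circles experiment 2. In class I, class III and extended class II the circles lie below the squares, at 6.43% to 7.16% against 9.66% and 11.5% in class I, whereas in extended class I and class II all points lie within about one percentage point of each other.

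Presence by experiment showed the same order. A peak in all 3 libraries of experiment 2 and none of experiment 1 was found in 15 regions (2.01%, against 5.28% of all regions), and a peak in both libraries of experiment 1 and none of experiment 2 in 31 (4.16%, against 1.63%). SCAN1#1 replicate 1 alone held 58 regions (7.77%, against 5.43%), and WT replicate 1 alone held 121 (16.2%, against 8.37%).

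Gene by gene, 83 of the 115 tested MHC genes had a lower mean in experiment 2 and 32 a higher one. In 54 genes (47.0%) the 3 libraries of experiment 2 all lay below both of experiment 1, against 28.1% of all tested genes, and in 3 (2.61%) all lay above, against 13.2%. The median difference was -8.27 percentage points, where all tested genes had -1.02. With genotype as a term limma called 0 genes at an adjusted p of 0.05 (0% of 8471), and at an unadjusted p under 0.05 it gave 3 MHC genes higher and 38 lower, against 3.71% and 17.8%. Without that term, an alternative added after the data were seen, it called 6 MHC genes lower: FLOT1, SAPCD1, BAG6, PPP1R10, ATP6V1G2 and WDR46, among 182 lower and 10 higher in all. Of the 452 tested regions limma called 0 (0% of 100719), and below an unadjusted p of 0.05 there were 16 higher and 26 lower, against 9.27% and 2.16%. Without SCAN1#1 replicate 1, WT replicate 1 or WT replicate 2 it called 77, 97 and 71 regions lower, against 9.15%, 11.6% and 10% of all regions, and 14, 1 and 1 higher, against 5.83%, 0.439% and 0.348%. In each of these fits the difference rests on a lone library of experiment 1, whose spread is assumed to be that of experiment 2. Without WT replicate 2 this holds because the genotype term fits WT replicate 1 exactly.

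FLOT1 showed the largest gap, with 23.4%, 27.6% and 26.8% covered in experiment 2 (SCAN1#1, SCAN1#2 and WT) and 91.1% and 100% in experiment 1 (SCAN1#1 and WT). BAG6, a chaperone of tail-anchored membrane proteins, had 19.3%, 10.9% and 17.6% in experiment 2 and 64.6% and 58.5% in experiment 1. SKIC2, a helicase of the cytoplasmic exosome, had 37.0%, 15.1% and 24.7% in experiment 2 and 77.3% and 63.5% in experiment 1. In these 3 genes the experiments did not overlap, although SKIC2 spread from 15.1% to 37.0% within experiment 2. HLA-C went the other way, with 46.3%, 33.4% and 22.8% in experiment 2 and 14.1% and 1.59% in experiment 1, as did the mean of FKBPL.

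**Figure D4:**
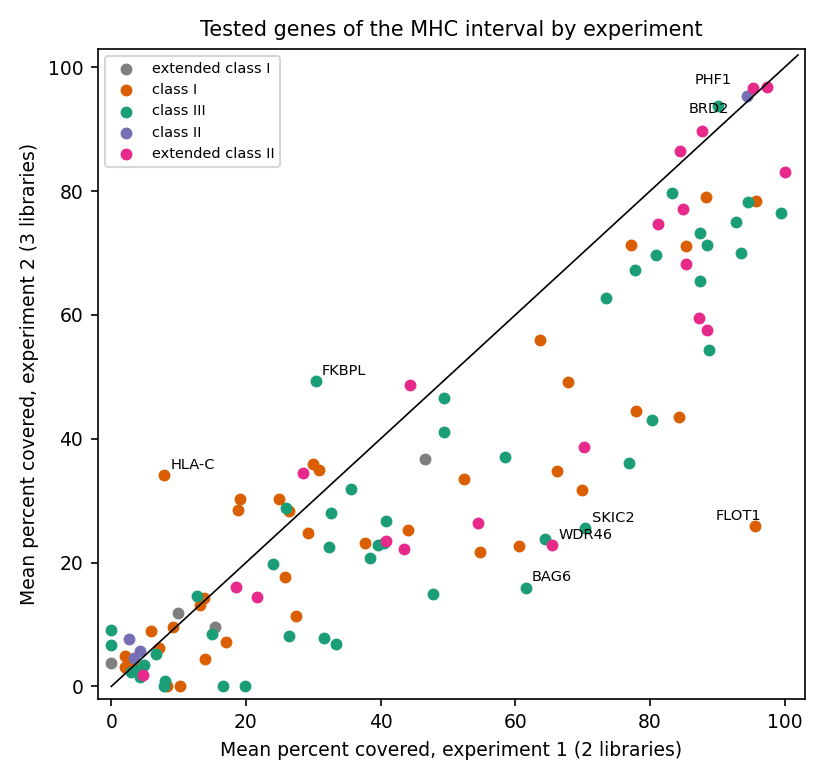
Mean percent covered by peaks in experiment 2 (3 libraries) against experiment 1 (2 libraries) for the 115 tested protein-coding genes, coloured by block, with the line of equality. Of the points, 83 lie below the line, and FLOT1, SKIC2, WDR46 and BAG6 are far below it, while HLA-C and FKBPL are above and BRD2 and PHF1 lie on it near full coverage.

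The widest merged region shows what the lower coverage looks like. It spans 25862 bases at chr6:30719322-30745183 and holds TUBB, FLOT1 and IER3. As deposited, it was covered by 10, 6 and 7 peaks in experiment 2 (SCAN1#1, SCAN1#2 and WT) and by 7 and 2 peaks in experiment 1 (SCAN1#1 and WT). These covered 53.6%, 48.3% and 52.7% of the region in experiment 2 and 91.8% and 98.5% in experiment 1. A broad peak lay over TUBB and another over the stretch with the FLOT1 start and IER3 in all 5 libraries, and the peaks of experiment 2 over the body of FLOT1 were short and scattered. The strongest peak of the region had a fold of 71.7, 119 and 59.5 in experiment 2 and of 49.01 and 51.7 in experiment 1. The median fold of the whole deposited lists was also higher in experiment 2, at 5.76, 5.94 and 5.68 against 4.85 and 4.84. The strongest peak at PPP1R10 and MRPS18B did not keep this order, with 58.3, 45.8 and 36.8 in experiment 2 and 37.6 and 55.5 in experiment 1.

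**Figure D5:**
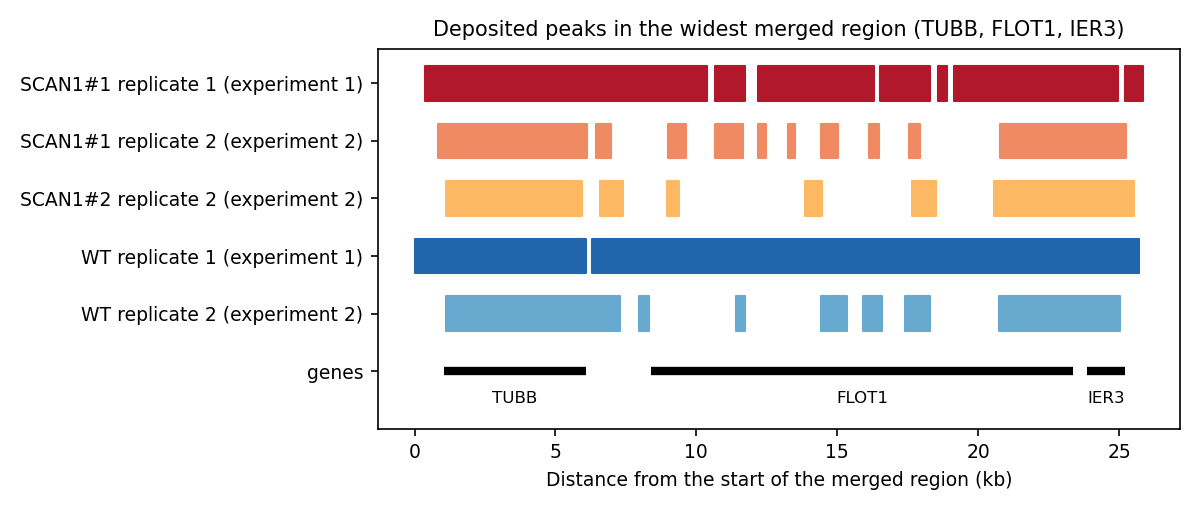
Deposited peaks (bars) in the widest merged region of the interval by distance from its start in kb, one row per library, with the spans of TUBB, FLOT1 and IER3 below. The libraries of experiment 1 are covered almost end to end, over 91.8% and 98.5%, while those of experiment 2 have a block of peaks at each end and scattered short peaks over FLOT1.

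The next regions by width were PRRC2A with BAG6 (21163 bases), the APOM to LY6G5B cluster (15904 bases), PPP1R10 (15706 bases), BRD2 (14779 bases), RXRB to RING1 (14610 bases), RNF5 to GPSM3 (13048 bases) and KIFC1 with PHF1 and CUTA (12552 bases). The PPP1R10 region was covered over 61.1%, 43.9% and 56.3% in experiment 2 and 88.0% and 100% in experiment 1, in WT as 1 unbroken peak. BRD2 did not share this pattern, at 97.2%, 95.3% and 96.0% in experiment 2 and 93.7% and 97.3% in experiment 1.

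Gene groups of the interval differed widely in coverage. Peaks on genes were counted on lists of equal length here and below. All 16 genes of RNA processing and translation had a peak in all 5 libraries, and their mean coverage was 47.9% in SCAN1 and 52.5% in WT. Of them 3 had a higher and 13 a lower mean in SCAN1 (7 and 9 with the experiment as a block, 11 and 5 without WT replicate 1), and 2 a higher and 14 a lower mean in experiment 2. NELFE, a subunit of the complex that pauses RNA polymerase II, was covered over 86.4%, 78.6% and 76.8% in SCAN1 libraries and 88.5% and 64.4% in WT libraries. PRRC2A, an RNA-binding reader, had 85.3%, 68.3% and 57.5% in SCAN1 libraries and 89.5% and 70.5% in WT libraries. DDX39B, an RNA helicase of mRNA export, had 44.3%, 40.6% and 56.5% in SCAN1 libraries and 54.7% and 42.9% in WT libraries. The groups overlapped at all 3.

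The 16 genes of chromatin, transcription and genome maintenance had means of 44.9% in SCAN1 and 48.6% in WT, with 7 higher and 9 lower in SCAN1 (10 and 5 without WT replicate 1), and 15 of them had a peak in all 5 libraries. POU5F1, the pluripotency factor, was the exception, with 16.5% in WT replicate 1 and 0% elsewhere. DAXX, a histone H3.3 chaperone, had 34.0%, 62.5% and 52.2% in SCAN1 libraries and 54.8% and 31.5% in WT libraries. EHMT2, a histone H3K9 methyltransferase, had 25.1%, 16.1% and 5.998% in SCAN1 libraries and 27.6% and 2.29% in WT libraries. MDC1, which docks the DNA damage response on marked chromatin, had 42.7%, 26.0% and 20.8% in SCAN1 libraries and 66.8% and 18.2% in WT libraries. The 10 genes of cytoskeleton, membrane and stress all had a peak in every library, with means of 51.1% in SCAN1 and 60.0% in WT, 3 higher and 7 lower in SCAN1 and a median difference of -10.4 points (-5.35 with the experiment as a block, -1.32 without WT replicate 1).

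Among the 4 complement genes, CFB was covered over 73.5%, 72.9% and 54.2% in SCAN1 libraries and 73.5% and 61.2% in WT libraries, and C2 over 15.2%, 10.7% and 5.27% in SCAN1 and 14.7% and 9.58% in WT. C4A and C4B had no peak, but they are near-identical copies to which short reads cannot be assigned with certainty, and the same holds for HSPA1A and HSPA1B, the inducible HSP70 genes, which had peaks in libraries of experiment 1 alone, at most 11.2% of the gene. Of the 7 leukocyte and TNF family genes 5 were tested and all 5 had a lower mean in SCAN1, by a median of -3.51 points, but 0 of the 5 were lower in all 3 comparisons within experiments, and the median was 2.29 without WT replicate 1. LTA had 40.8%, 28.2% and 20.7% in SCAN1 libraries and 40.2% and 20.5% in WT libraries, so it was higher in SCAN1 in each comparison within an experiment, whereas TNF, next to it, had no peak. The 5 tested epidermal and mucin genes had a lower mean in SCAN1 as well, by a median of -10.2 points, of which 2 were lower in all 3 comparisons within experiments, and the median was 0 without WT replicate 1. Of the 5 LY6 genes 3 were tested, 2 higher and 1 lower in mean in SCAN1, and 0 were higher in all 3 comparisons within experiments. Over all 8471 tested genes, 15.8% were lower and 19.4% higher in all 3 such comparisons. Of the 14 protein-coding olfactory receptor genes of the interval, 11 had no peak.

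Genes without a protein product had peaks of their own. Their coverage is over the gene alone, without the 1 kb on both sides. Of 73 lncRNA genes, 20 were under a peak in every library and 32 in none. IER3-AS1 was covered over 100% in every library, and HCG27 over 28.1%, 51.3% and 44.7% in SCAN1 and 63.6% and 64.4% in WT. SNHG32, the host of box C/D snoRNAs, was covered over 38.9%, 77.1% and 24.6% in SCAN1 libraries and 74.5% and 73.0% in WT libraries. Of its snoRNAs, SNORD48 lay under a peak in all 5 libraries and SNORD52 under none. Of the 13 miRNA genes 4 lay under one in every library, among them MIR219A1 and MIR877. Of the 40 tRNA genes 38 had no peak, and 96 of 110 pseudogenes had none. Members of a tRNA or pseudogene family share sequence, so reads there are hard to place.

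Marker genes of cell types, read as peak coverage and not as expression, were checked over the genome. The 6 osteoblast and mesenchymal markers had mean coverage of 22.03%, 20.01% and 15.9% in SCAN1 libraries and 34.6% and 24.5% in WT libraries. The 5 B cell markers had 16.5%, 6.36% and 2.14% in SCAN1 libraries and 18.6% and 5.53% in WT libraries, with no peak on 2 of them, and the 4 myeloid markers had 0% to 4.69% in every library. DRIP peaks do not check the TDP1 change itself.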

How the data were processed

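Peak lists of 5 DRIP libraries were analysed; input samples are not analysed here. Per the submitters' processing notes, MACS3 3.0.0a6, BWA 0.7.17-r1188, deepTools 3.5.1, SAMtools 1.9, FastQC 0.11.5 and hg38 were used, with no roles stated. Per the file layout, the authors deposited per peak a score, a fold enrichment (a ratio), a -log10 p and a -log10 q. Every list starts at a -log10 q of about 2 (2.00 to 2.01). No source used here states filters, caller options or depth.

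Peaks that overlap or touch were merged. Coverage, and counts of genes and promoter windows with a peak, used the 63456 peaks of highest -log10 p per library. Presence in merged regions used the lists as deposited. Genes come from RefSeq on GRCh38.p14. Protein-coding genes were taken with 1 kb on both sides and, for the tests, a mean of at least 2%. Other genes were taken without the 1 kb. Limma 3.58.1 (lmFit, eBayes with trend, R 4.3.3) was used with Benjamini-Hochberg adjustment and a threshold of 0.05. It was fitted across all genes, all regions with a peak in 2 or more libraries, and all windows. Windows of 5 Mb had at least 10 peaks and those of 500 kb at least 2, fitted as log2 of the share with 500 bases added. The fits were tested on simulated data with shifts far larger than the spread between libraries. Window starts follow the interval. Python 3.11.15, numpy 2.4.6, pandas 2.3.3 and matplotlib 3.10.9 were used.

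Named were the 12 genes of highest coverage, per direction the 8 with the largest smallest difference within experiments, members of 13 gene lists, the 5 strongest peaks per library, the 8 widest regions and the 10 windows. Some items of the interval are not reported here. The members, gene lists and tests were chosen with earlier results of these data known, and examples inside lists were in part chosen after their values were seen. Replicate numbers are experiment numbers per the labels and thus pair libraries. Deviations from group means correlated across genes by 0.612 for SCAN1#1 and WT in experiment 1, 0.325 for SCAN1#1 and WT in experiment 2 and 0.470 for SCAN1#2 and WT in experiment 2.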

Additional observations from a re-analysis of the deposited data

How the results depend on the processing

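The calls between SCAN1 and WT stayed at 0 for genes and 500 kb windows of the MHC under all planned settings. Over the genome such calls were few as well. There were 1 higher and 12 lower of 19970 genes without the filter, and 13 higher and 10 lower of 4793 windows with the experiment as a block. With the replicate block (the experiment) the log2 difference of the 5 Mb window was -0.07, and the block changed no call in the MHC. The regions gave 5 higher and 5 lower without the filter on presence (0.67% each, against 0.736% and 0.698% of all regions). Leaving out 1 library in turn gave 0 to 31 lower regions (18 without WT replicate 1, 31 without WT replicate 2, where a lone WT sample is assumed to vary like SCAN1) and -0.48 to 0.16 for the 5 Mb window. Without WT replicate 1 its sign turned. Merging peaks within 1 kb gave 418 regions in place of 746. Regions of all SCAN1 and no WT numbered 3 with lists of equal length and 13 to 28 with 1 library left out. Regions of both WT and no SCAN1 numbered 8 with equal length, 4 at a -log10 q of at least 5, and 19 to 134 with 1 library left out. Leaving out a library relaxes the pattern by construction.

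For experiment 2 against experiment 1, added after the data were seen with all its settings, dropping the genotype term gave 6 lower genes, against 182 of all 8471. It also gave 1 lower region (0.221%, against 0.0665% of all regions) and 0 higher 500 kb windows, against 1748 of all 4793. Regions without the filter gave 3 higher and 14 lower (0.402% and 1.88%, against 1.8% and 1.3% of all). The number of peaks gave 0 higher 500 kb windows, against 309 of all 4793. With 1 library left out there were 0 to 14 higher and 0 to 97 lower regions, 0 to 1 higher and 0 to 5 lower 500 kb windows, and -0.64 to -0.54 for the 5 Mb window. Regions of all experiment 2 and none of experiment 1 (15) numbered 21 to 43 with 1 library left out. Regions of both of experiment 1 and none of experiment 2 (31) numbered 49 with equal length, 15 at a -log10 q of at least 5, and 34 to 152 with 1 library left out.

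Of 215 alternative values for 18 named genes, 202 kept their direction and 13 reversed, none of them past the threshold. Most of these genes were named because their differences within experiments shared a sign, which favours a kept direction. SCAN1#1 against WT only is the same fit as leaving out SCAN1#2 replicate 2, and both are in the count. As deposited, AGPAT1 gave -3.13 points and MICA -0.62. Over gene ends MSH5 gave 0.49, and with SCAN1#1 against WT only HLA-G gave -0.53. With 1 library left out the ranges were -36.5 to 1.57 for ABCF1, -3.57 to 22.8 for AGPAT1, -7.47 to 20.8 for DDAH2, -2.36 to 2.84 for HLA-G, -4.83 to 9.001 for MICA and -14.9 to 27.8 for RNF5. HLA-E kept its direction (24.9 to 40.7), which leaving out a library could not change because its groups did not overlap. The cause of these changes was not tested. With 3 and 2 libraries and no read counts, differences smaller than the spread between libraries were not detectable, and larger ones could be missed as well. HLA-E, higher in SCAN1 by 32.8 points and without overlap of the groups, was not called.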

Other observations

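Peak width in the MHC had a median of 538, 545 and 551 bases in SCAN1 libraries and 523 and 549 bases in WT libraries as deposited. The genome medians were 386, 400 and 396 bases in SCAN1 and 371 and 430 bases in WT. No test was made of these values.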
